A study of Mus musculus with 8 samples.

Results

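Spectrins and ankyrins build the membrane skeleton, and 7 of their genes were followed here: the spectrin chains Sptan1, Sptb, Sptbn1 and Sptbn4 and the ankyrins Ank1, Ank2 and Ank3. They were picked by gene symbol from the 28460 genes of the deposited table, in which all 7 were present, and they were proposed with results of the genotype comparison known. Their differences between genotypes are therefore given as a description, without a test. RNA-seq was carried out on spermatogenic cells of mouse testes at postnatal day 12, in 4 libraries labelled Brg1 WT (genotype Brg1WT) and 4 labelled Brg1 cKO, a conditional knockout (genotype Brg1cKO), all on a mixed strain background and each group being described as biological replicates. The Smarca4 gene encodes Brg1, the motor subunit of SWI/SNF remodellers, which move nucleosomes. The sources used here do not give the driver of the deletion or the number of animals behind each library.

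Spectrin is a long, flexible tetramer of alpha and beta chains that crosslinks short actin filaments into a lattice under the plasma membrane. Ankyrins are adaptors: a stack of ankyrin repeats grips the cytoplasmic tail of a channel, pump or adhesion protein, and a separate domain grips beta spectrin, so that the membrane protein is held in place. The lattice is best known from red cells, where its loss makes the cells fragile, and from axons, where it spaces actin rings and gathers ion channels. In the testis, cell contacts between Sertoli cells and germ cells are among the places where such membrane scaffolds are found.

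Library totals ran from 20456743 to 32596038 estimated counts, and levels are given as CPM, a count divided by its library's total on a common scale after TMM (trimmed mean of M-values) factors. Smarca4 itself lay between 338 and 357 CPM in the Brg1 WT libraries and between 111 and 129 CPM in the Brg1 cKO libraries. The cells were not sorted by a named marker. The germ cell genes Ddx4 and Dazl were present at 148 to 238 and 461 to 746 CPM, so germ cells were present, but Sertoli genes were plentiful too. The summed level of 15 Sertoli markers ran from 5280 to 6717 CPM in Brg1 WT and from 6885 to 9164 CPM in Brg1 cKO, with 8 markers higher and none lower in edgeR's quasi-likelihood test (9 with an unadjusted p under 0.05 and 9 by DESeq2). The sum of 10 pan-germ cell markers ran from 2257 to 2900 CPM and from 1702 to 2265 CPM, with 2 lower (8 with an unadjusted p under 0.05 and 6 by DESeq2). Of 9 genes of undifferentiated spermatogonia 6 were lower, and of 6 tested pachytene and spermatid genes 5 were lower, with sums of 50.1 to 114 CPM in Brg1 WT and 27.8 to 28.8 CPM in Brg1 cKO. Peritubular and stromal genes had 2 higher and 1 lower of 13, Leydig genes 1 higher of 7, and neural and Schwann genes 2 lower of 7. In the endothelial, macrophage and erythroid lists neither edgeR nor DESeq2 called a gene, and 0 had an unadjusted p under 0.05.

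Sptan1, the non-erythroid alpha chain that pairs with most beta chains, was one of the most abundant transcripts of these cells, ranking 35 of 16059 tested genes by its mean CPM in Brg1 WT. Its level was 954, 922, 1017 and 1033 CPM in Brg1 WT replicates 1 to 4 and 982, 952, 939 and 1119 CPM in Brg1 cKO replicates 1 to 4. The genotypes overlapped, with the highest library, Brg1 cKO replicate 4, standing above the rest. Mean levels of 981 ± 52.3 and 998 ± 82.7 CPM (SD, n = 4 each) gave a fold of 1.02 for Brg1 cKO over Brg1 WT with a 95% interval of 0.901 to 1.15. In bulk cells, fewer cells of a type and less RNA per cell cannot be told apart, for this gene and for those that follow.

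Sptbn1, the widely expressed beta-II chain, was the most abundant beta chain among the members. Its CPM was 379, 462, 520 and 507 across Brg1 WT replicates 1 to 4, against 605, 525, 536 and 548 across Brg1 cKO replicates 1 to 4. Every Brg1 cKO library lay above every Brg1 WT library, although the highest Brg1 WT value and the lowest Brg1 cKO value were close. The means were 467 ± 63.7 and 554 ± 35.3 CPM, a log2 fold change of 0.25 ± 0.102 (SE), or 1.19-fold. Much of the distance came from Brg1 WT replicate 1, and the log2 fold change was 0.16 without it. It was -0.17 when the median change of the Sertoli markers was taken as no change, and 0.59 with that of the pan-germ cell markers.

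Sptb, the erythrocyte beta-I chain, which is also made in muscle and brain, was the most variable of the abundant members. It had 116, 121, 156 and 160 CPM in Brg1 WT replicates 1 to 4 and 191, 109, 160 and 247 CPM in Brg1 cKO replicates 1 to 4. Brg1 cKO held both the lowest library, replicate 2, and the highest, replicate 4, so the ranges overlapped throughout. The means were 138 ± 23.0 and 177 ± 58.0 CPM, a log2 fold change of 0.35 ± 0.235 (SE), which was 0.15 without Brg1 cKO replicate 4 and 0.53 without Brg1 cKO replicate 2. The coefficient of variation within Brg1 cKO was 32.8%, where counting alone gives 1.57%. The summed level of 7 erythroid markers ran from 11.52 to 30.38 CPM in Brg1 WT and from 9.30 to 99.1 CPM in Brg1 cKO. In Brg1 cKO it was highest in replicate 2, where Sptb was lowest, and lowest in replicate 4, where Sptb was highest. The part of these markers in the spread of Sptb was not tested.

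Sptbn4, the beta-IV chain of axon initial segments and nodes of Ranvier, was barely expressed. It had 38, 47, 55 and 39 estimated counts in Brg1 WT and 38, 49, 49 and 23 in Brg1 cKO, or 1.59 ± 0.222 and 1.66 ± 0.360 CPM (SD, n = 4 each). The ranges overlapped. At such counts the number of reads limits the comparison: counting alone gives a coefficient of variation of 14.95% in Brg1 WT and 15.9% in Brg1 cKO, where 14.0% and 21.7% were measured, and the 95% interval of the fold was 0.742 to 1.48.

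Ank3, which encodes ankyrin-G, the organizer of axon initial segments and of lateral membranes in epithelia, was the most abundant ankyrin and the member with the clearest separation. Its CPM was 37.3, 45.5, 48.2 and 45.1 across Brg1 WT replicates 1 to 4, against 65.2, 56.4, 57.8 and 51.1 across Brg1 cKO replicates 1 to 4. The genotypes did not overlap, with Brg1 WT replicate 1 the lowest library and Brg1 cKO replicate 1 the highest. The means were 44.0 ± 4.67 and 57.6 ± 5.83 CPM, a log2 fold change of 0.39 ± 0.098 (SE), or 1.31-fold, which became -0.031 when the median of the Sertoli markers was taken as no change. With the pan-germ median as no change the value for Ank3 was 0.73. In the same libraries the median log2 fold change was 0.42 for Sertoli, 0.42 for peritubular and stromal and 0.48 for macrophage markers. It was 0.38 for endothelial, 0.69 for Leydig, 0.74 for erythroid and 0.04 for neural and Schwann markers. Germ cell lists had -0.35 (pan-germ), -0.76 (undifferentiated spermatogonia) and -1.68 (pachytene and spermatid). The part of any of these cell types in the difference was not tested.

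Ank2, which encodes ankyrin-B, known for holding transporters in heart muscle and for its roles along axons, showed no separation. It had 22.2, 28.1, 17.1 and 19.2 CPM in Brg1 WT and 20.4, 19.2, 27.3 and 20.4 CPM in Brg1 cKO. One library in each genotype, Brg1 WT replicate 2 and Brg1 cKO replicate 3, stood above the others. The means of 21.7 ± 4.80 and 21.8 ± 3.67 CPM gave a fold of 1.01 with a 95% interval of 0.779 to 1.31.

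Ank1, the red cell ankyrin that ties spectrin to the anion exchanger, was low, with 55 to 72 estimated counts in Brg1 WT and 38 to 54 in Brg1 cKO. Its level was 2.43, 2.42, 1.68 and 2.36 CPM in Brg1 WT and 1.79, 1.93, 2.17 and 1.88 CPM in Brg1 cKO. The ranges overlapped through Brg1 WT replicate 3 alone, which was lower than every other library. The log2 fold change was -0.19 ± 0.188 (SE), and 0.15 when the median of the pan-germ cell markers was taken as no change. With the Sertoli median it was -0.61.

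**Figure D1:**
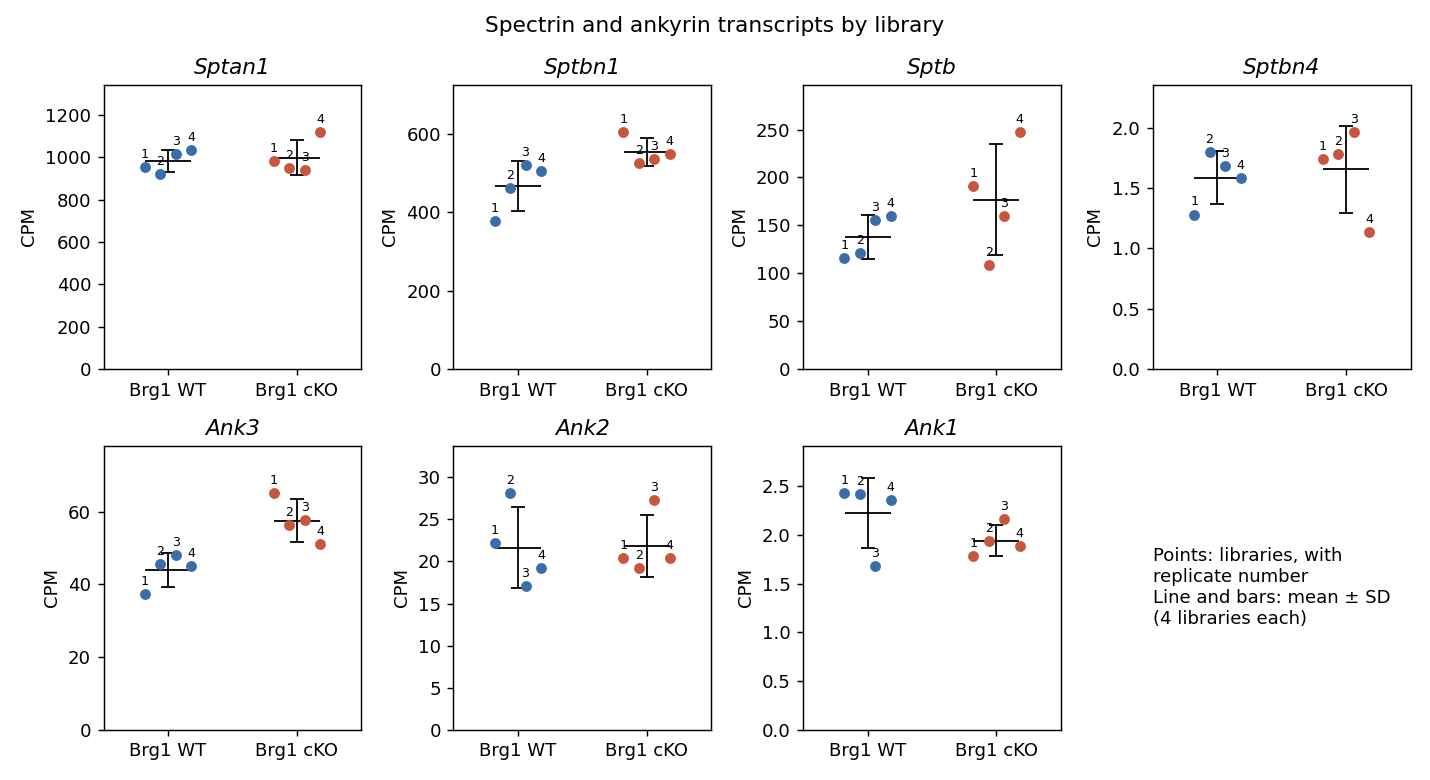
CPM of each of the 7 genes in each library (points, labelled with the replicate number; vertical axes start at 0), with the mean and SD of 4 libraries per genotype. The Ank3 and Sptbn1 points of Brg1 cKO all lie above those of Brg1 WT, whereas Sptan1, Sptb, Sptbn4, Ank1 and Ank2 overlap.

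Counted together, 1 of the 7 members, Ank3, was past an adjusted p of 0.05 in the edgeR fit over all genes, where 20.6% of the 16059 genes tested were. That count was 0 when Brg1 WT replicate 1 or 2 or Brg1 cKO replicate 1 or 3 was left out. Over all genes 2037, 1777, 1608 and 1881 were called without those libraries. With the Sertoli median as no change the member count was 2, Sptan1 and Ank1, both lower, where 9214 of all genes were called (55 higher and 9159 lower). With the pan-germ median it was 4, Sptan1, Sptb, Sptbn1 and Ank3, all higher, where 8863 of all genes were called (8284 higher and 579 lower). The libraries of the genotypes did not overlap for 2 of the 7, Sptbn1 and Ank3, and for 26.0% of all genes tested. Since the members were proposed with this comparison known, nothing is read from these counts. The median log2 fold change was 0.07 over the members and 0.01 over all genes tested. Of the 7 values 6 were positive, as were 8270 of the 16059 genes tested. Those of Ank2, Sptan1 and Sptbn4 (0.012, 0.024 and 0.066) were smaller than their SEs (0.168, 0.079 and 0.224).

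To compare the genes with each other, levels were divided by the longest complete coding length of each gene. In Brg1 WT, Sptan1 had 131 ± 6.98 CPM per kb, Sptbn1 65.8 ± 8.99, Sptb 19.8 ± 3.29, Ank3 7.39 ± 0.785, Ank2 1.84 ± 0.408, Ank1 0.388 ± 0.063 and Sptbn4 0.207 ± 0.029 (SD, n = 4). No neighbours in this order of the 7 overlapped in any library of either genotype. All 3 ankyrins thus lay below Sptan1, Sptbn1 and Sptb per coding length and above Sptbn4. By transcript length Ank1 and Sptbn4 overlapped in both genotypes. In Brg1 WT, Ank1 had 0.2045 CPM per kb of transcript in replicate 3 and Sptbn4 0.206 in replicate 2. These genes make transcripts of many lengths (coding lengths of 873 to 5955 bases for Ank3 and 339 to 11778 bases for Ank2), the counts do not tell them apart, and a shorter form in use would raise the level per kb. Exons of Sptb, Sptbn1, Sptbn4, Ank1 and Ank2 overlap genes on the other strand (Plekhg3 for Sptb), and reads of the overlap cannot be told apart if strand was not used. Exons of Sptbn4 also overlap Gm20479 on the same strand, which strand cannot separate.

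**Figure D2:**
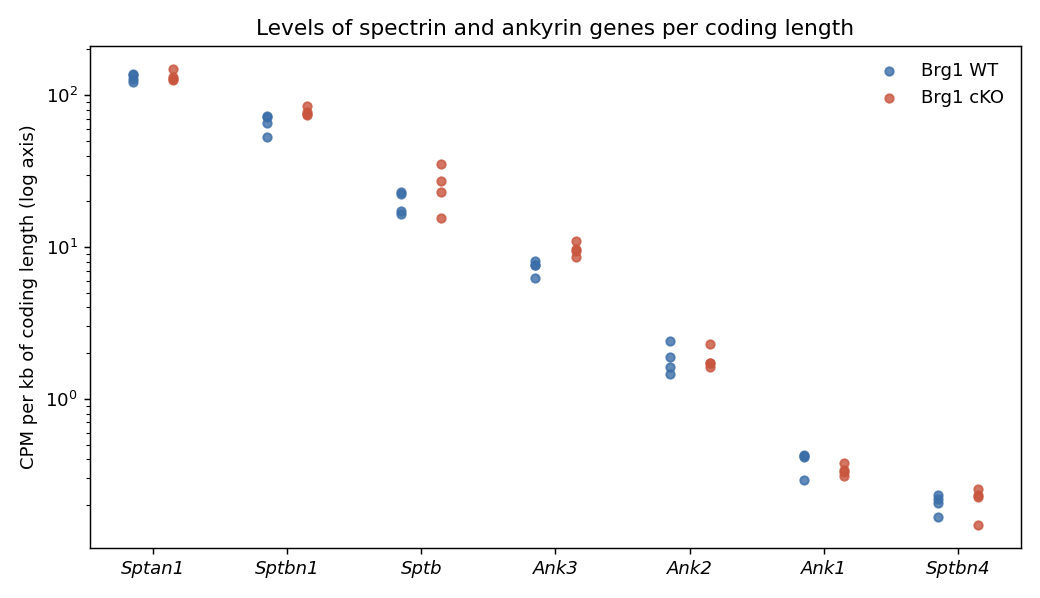
CPM per kb of coding length (log axis) for the 7 genes, with a point per library, blue for Brg1 WT and red for Brg1 cKO. The order of the 7 genes is the same in both genotypes, from Sptan1 at 131 CPM per kb in Brg1 WT down to Sptbn4 at 0.207.

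Sptbn5, a very long beta chain outside the 7, had 11.3 ± 1.66 and 9.63 ± 1.38 CPM (log2 fold change -0.23 ± 0.146 SE, edgeR adjusted p = 0.290), with a value of 0.12 relative to the pan-germ cell median, which was -0.35. Relative to the Sertoli median Sptbn5 had -0.64. It has no coding length in the annotation used and was left out of sums per length.

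The shares of single genes in these sums of members, which are not totals over all beta chains, overlapped between the genotypes. Of the sum of Sptb, Sptbn1 and Sptbn4 per coding length, Sptbn1 made up 76.8 ± 1.43% in Brg1 WT and 75.8 ± 5.71% in Brg1 cKO, and Sptb 23.0 ± 1.45% and 24.0 ± 5.77%, both with overlap. The wider spread in Brg1 cKO came from Sptb, which took 17.3% in replicate 2 and 31.3% in replicate 4. Shares of a sum move together by construction, so those of Sptb and Sptbn1 are not separate measurements. Among ankyrins, Ank3 made up 76.8 ± 4.51% of the sum per coding length in Brg1 WT and 81.5 ± 2.62% in Brg1 cKO, with overlap, and the sum was 9.62 ± 0.781 and 11.9 ± 1.04 CPM per kb. The libraries did not overlap in that sum, but they did when transcript length was used in place of coding length (6.20 ± 0.506 and 7.54 ± 0.650 CPM per kb).

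**Figure D3:**
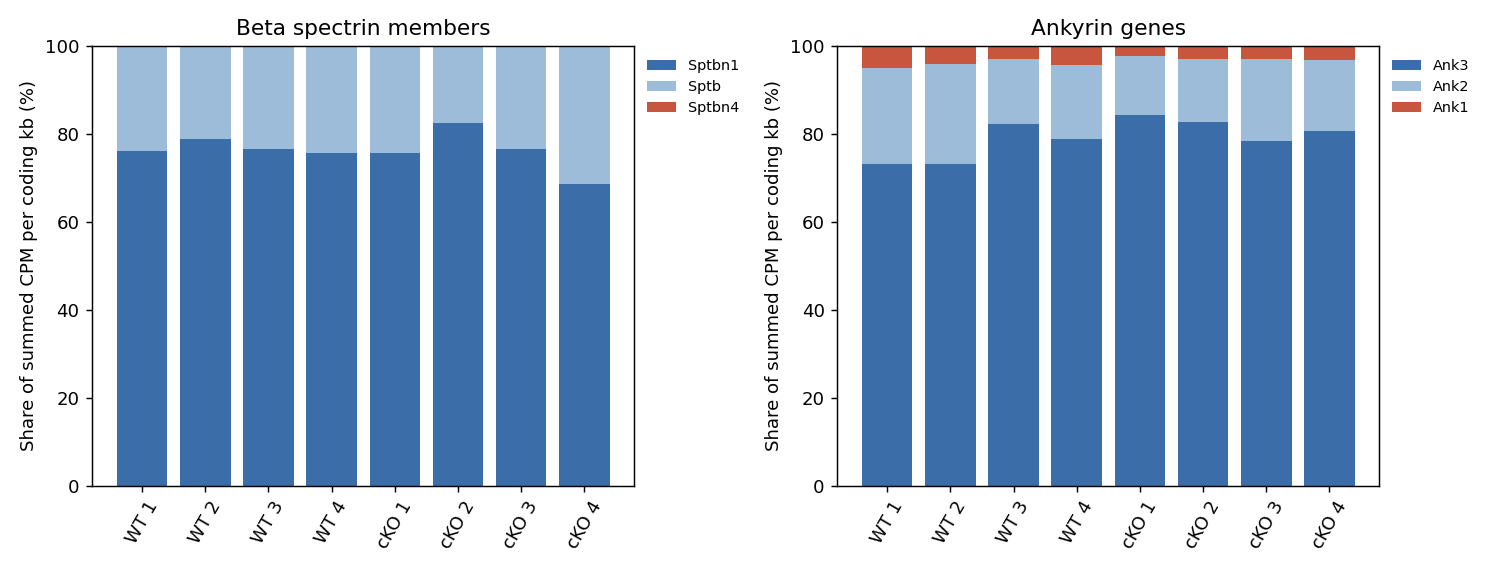
Share of each gene in the summed CPM per coding kb of the members Sptb, Sptbn1 and Sptbn4 (left) and of the ankyrin genes (right), 1 stacked bar per library. Sptb takes 17.3% to 31.3% in Brg1 cKO and 20.9% to 24.2% in Brg1 WT, and Sptbn4, at 0.131% to 0.283%, is too thin to see.

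Within genotypes the members did not vary as a block. After the mean of each genotype was taken away, 10 of the 21 pairs of members had a positive correlation of log2 CPM over the 8 libraries and 5 had an r over 0.5. These values describe libraries that share depth and cell mixture, and no p is given for them. Ank3 varied with Sptbn1 (Pearson's r = 0.84, Spearman's rho = 0.88), and r was 0.58 without the pair of libraries farthest out in Sptbn1. Sptb varied with Sptan1 (r = 0.82, rho = 0.81, and 0.57 without the pair farthest out in Sptan1), and Ank1 varied with Ank2 (r = 0.73, rho = 0.74, and 0.73). The pair Sptbn4 and Ank3 had r = 0.74 but rho = 0.40 and rested on Brg1 cKO replicate 4 and Brg1 WT replicate 1, with r = -0.33 without them. Sptan1 and Sptbn4 ran against each other (r = -0.71), but r was -0.10 without Brg1 cKO replicate 4.

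**Figure D4:**
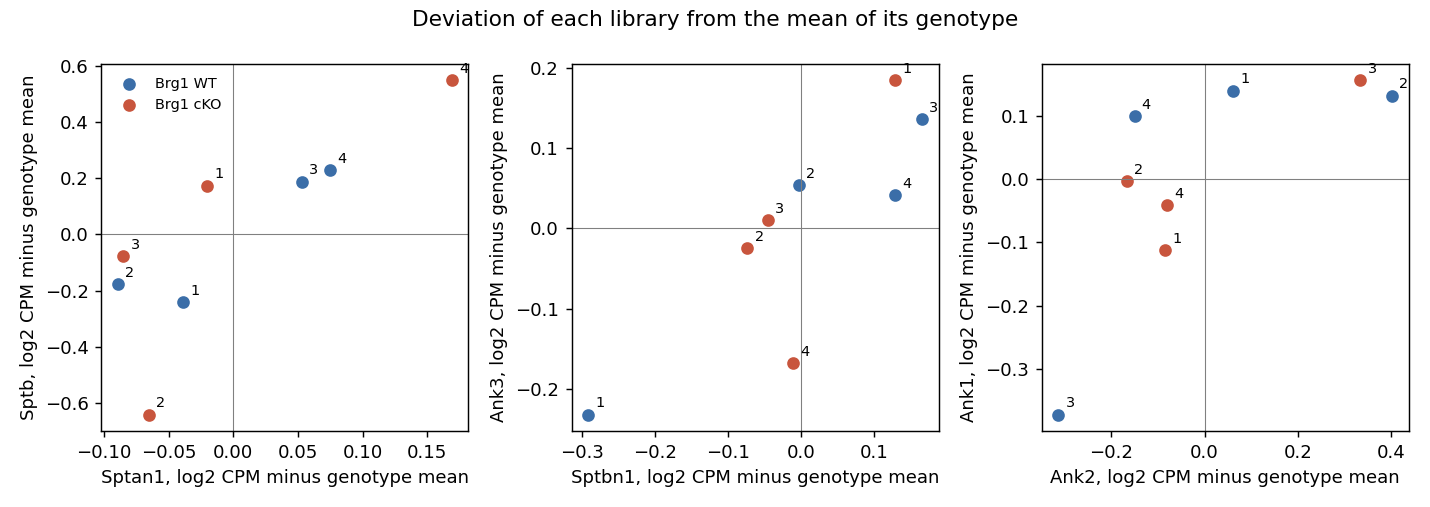
Deviation of log2 CPM from the genotype mean in each library for 3 pairs of genes, blue for Brg1 WT and red for Brg1 cKO, with replicate numbers. Sptan1 and Sptb are both highest in Brg1 cKO replicate 4, Sptbn1 and Ank3 are both lowest in Brg1 WT replicate 1, and Ank2 and Ank1 are both lowest in Brg1 WT replicate 3.

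Cell type markers varied along with some members in the same way. With deviations again taken within genotypes over 8 libraries, Sptb and Sptan1 had r = 0.79 and 0.63 with the mean of the Sertoli markers and r = -0.80 and -0.90 with that of the Leydig markers. The values with the erythroid markers were -0.84 for Sptb and -0.69 for Sptan1. Sptb and the erythroid markers were both farthest from the genotype mean in Brg1 cKO replicates 2 and 4. There Sptb deviated by -0.641 and 0.547 on the log2 scale, in the opposite direction to these markers. Ank3 had r = 0.87 with the macrophage and 0.78 with the peritubular and stromal markers but 0.27 with the Sertoli markers, and Sptbn1 had 0.70 with the macrophage and 0.64 with the Sertoli markers. For Sptbn4 the value with the peritubular and stromal markers was 0.96. It was 0.81 with the neural and Schwann, 0.78 with the Leydig and 0.75 with the endothelial markers. Sptbn4, at 23 to 55 estimated counts, was lowest in Brg1 WT replicate 1 and Brg1 cKO replicate 4 within their genotypes. The peritubular and stromal markers were lowest in the same libraries. Ank3 and Sptbn1 each had r = -0.76 with the pan-germ cell markers. No marker correlation was computed with libraries left out, so how far each rests on single libraries is not given. The part of the cell mixture in these correlations was not tested.

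Sptan1 and Sptb, whose levels moved together among libraries, are shown with the 250 bases before their RefSeq start sites on GRCm38.p6, with GC boxes in capitals. These windows overlap no exon of the annotation, and of the members 5 have an entry in the promoter table used. The Sptan1 window is at chr2:29965310-29965559 on the plus strand and that of Sptb at chr12:76710548-76710797 on the minus strand.
Sptan1: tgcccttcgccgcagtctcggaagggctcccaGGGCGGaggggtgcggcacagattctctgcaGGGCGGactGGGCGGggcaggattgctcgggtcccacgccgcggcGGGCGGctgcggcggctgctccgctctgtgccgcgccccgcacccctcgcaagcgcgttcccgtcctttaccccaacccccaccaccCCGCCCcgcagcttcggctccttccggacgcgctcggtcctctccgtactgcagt
Sptb: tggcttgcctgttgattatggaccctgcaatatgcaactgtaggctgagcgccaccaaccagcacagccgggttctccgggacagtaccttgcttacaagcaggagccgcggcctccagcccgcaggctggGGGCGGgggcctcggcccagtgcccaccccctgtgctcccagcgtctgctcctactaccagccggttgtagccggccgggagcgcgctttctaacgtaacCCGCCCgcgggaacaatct
The motifs searched, on both strands, were the GC box GGGCGG, the CCAAT box CCAAT and the TATA box TATAAA. Sptan1 holds 5 GC boxes and Sptb 2, where 32.7% of 32817 such windows of all genes hold at least 1. GC boxes are not particular to this pair: the windows of Sptbn4 hold 2, 1, 4 and 1, and those of Sptbn1 0 and 1. Neither the Sptan1 nor the Sptb window holds a CCAAT or TATA box, which are found in 33.8% and 12.4% of windows. The Sptan1 window has a GC content of 73.6% and 31 CpG sites, above 94.7% and 94.8% of windows, and the Sptb window 65.2% and 18 sites, above 83.0% and 78.3%. A match describes the letters and not binding.

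Outside the family, the genes whose within-genotype pattern was most like that of each member were found among 10272 or 10273 genes with an average log2 CPM of at least 3. They were Chd8 and Pcif1 for Sptan1 (r = 0.983 and 0.978), Ino80c and Znfx1 for Sptb (0.994 and 0.993), and Ing3 and Sept11 for Sptbn1 (0.988 and 0.987). For Sptbn4 they were Sulf2 and Tmem109 (0.996 and 0.991), for Ank1 Slc52a2 and Chp1 (0.992 and 0.980), for Ank2 Lifr and Ctsf (0.993 and 0.990) and for Ank3 Bambi and Arhgef5 (0.990 and 0.983). With 8 libraries and so many genes searched, high values were found for every member. Between 17 (Ank1, 0.17% of those searched) and 159 (Sptb, 1.55%) genes had r over 0.9.

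The partners of the skeleton were read from Sptbn5 and 4 lists of partners, 53 genes in all, 50 of them tested. Of these 11 rose, 3 fell and 36 were not called at an adjusted p of 0.05 (edgeR quasi-likelihood test), where 8.79% of all genes tested rose and 11.8% fell. Their median log2 fold change was 0.27, against 0.01 over all genes. The Sertoli markers had a median of 0.42, and with that taken as no change none of the 50 rose by edgeR (0 at an unadjusted p under 0.05) and 17 fell. At that setting 55 of all genes tested rose and 9159 fell. With the pan-germ median as no change 33 of the 50 rose and 2 fell, against 8284 and 579 of all genes tested. Without Brg1 WT replicates 1 and 2, which held the most pachytene and spermatid transcripts, none rose by edgeR (10 at an unadjusted p under 0.05) and 1 fell, Nrcam. Over all genes 96 rose and 342 fell without those libraries. Leaving out 1 library at a time gave 4 to 9 rises and 2 or 3 falls: 6, 7 and 7 rises without Brg1 WT replicate 1, 2 and 3, and 4 and 5 without Brg1 cKO replicate 1 and 3. The ranges over all genes were 556 to 1497 rises and 1052 to 1980 falls. DESeq2 called 18 rises and 3 falls in the lists, and 2228 rises and 2227 falls over all genes.

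At the junction of spectrin and actin, 3 of 18 genes rose, none fell (0 at an unadjusted p under 0.05 and 0 by DESeq2) and 15 were not called. Actg1, a cytoplasmic actin, rose by 0.44 ± 0.084 (SE) on the log2 scale, with means of 1378 ± 97.6 and 1875 ± 135 CPM (SD, n = 4 each) and an adjusted p of 0.0088, with the caution that reads of actin paralogs and pseudogenes can be split between them. Add1, the alpha adducin that caps actin ends and recruits spectrin, rose from 208 ± 18.2 to 260 ± 15.9 CPM (adjusted p = 0.021). Mpp1, a membrane scaffold that joins protein 4.1 in red cells, rose from 10.4 ± 1.78 to 14.2 ± 1.24 CPM (adjusted p = 0.048). None of the 3 overlapped between genotypes. Relative to the Sertoli median the log2 fold changes of Add1, Actg1 and Mpp1 were -0.10, 0.025 and 0.028. Relative to the pan-germ median they were 0.66, 0.79 and 0.79. Add1 lost its call without Brg1 WT replicate 2 (an edgeR adjusted p of 0.0587), Brg1 cKO replicate 1 (0.0584) or Brg1 cKO replicate 3 (0.0503), and Mpp1 was called only without Brg1 WT replicate 4. The 4 protein 4.1 genes of the list, the other bridge from spectrin to actin, were not called by edgeR, with 98.0 ± 10.9 and 103 ± 13.7 CPM for Epb41. DESeq2 called 1 of them, Epb41l1, as higher (edgeR adjusted p = 0.0947).

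Of 16 tested genes of membrane proteins known to bind ankyrins 4 rose, 2 fell and 10 were not called. The falls were of Nrcam and L1cam, which belong to the L1 family of adhesion molecules, whose tails bind ankyrin. Of the other L1-family genes of the list, Nfasc had 6.47 ± 0.697 and 8.41 ± 1.93 CPM (adjusted p = 0.149, edgeR) and Chl1 was too low to be tested. Nrcam had 35.5, 30.4, 33.5 and 32.4 CPM in Brg1 WT and 20.1, 20.7, 19.6 and 18.1 CPM in Brg1 cKO, without overlap, and fell by 0.75 ± 0.079 on the log2 scale (SE, adjusted p = 0.0012, edgeR). L1cam, at 2.47 ± 0.417 and 1.35 ± 0.200 CPM, fell by 0.87 (adjusted p = 0.020). With the pan-germ median as no change the log2 fold changes were -0.40 for Nrcam and -0.52 for L1cam, which then lost its call (edgeR adjusted p = 0.0546). With the Sertoli median they were -1.17 and -1.29. Itpr1, a calcium release channel, rose from 186 ± 12.4 to 240 ± 16.0 CPM (adjusted p = 0.0095) and Slc4a3, an anion exchanger, from 44.4 ± 2.25 to 62.7 ± 8.77 CPM (adjusted p = 0.011). Itpr1 had a log2 fold change of -0.054 and Slc4a3 one of 0.079 relative to the Sertoli median. Relative to the pan-germ median these were 0.71 and 0.84. L1cam lost its call without Brg1 WT replicate 2 (an edgeR adjusted p of 0.0586), Brg1 WT replicate 3 (0.0531) or Brg1 cKO replicate 3 (0.0537). Slc4a1, the red cell anion exchanger that Ank1 holds, was too low to be tested.

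Among 11 relatives that carry spectrin repeats 1 rose, 1 fell and 9 were not called. Dmd, which encodes dystrophin, rose by 0.52 ± 0.095 (SE) on the log2 scale, at 80.7 ± 10.8 and 115 ± 6.41 CPM with no overlap (adjusted p = 0.0083). Actn3, the fast-muscle alpha-actinin, fell by 1.03 ± 0.208 (SE) on that scale, at 30.3 ± 7.45 and 14.9 ± 3.07 CPM, also with no overlap (adjusted p = 0.012). Dmd had a log2 fold change of 0.097 relative to the Sertoli median and 0.86 relative to the pan-germ median. Those of Actn3 were -1.44 and -0.68. Without Brg1 WT replicates 1 and 2, Dmd and Actn3 were not called (edgeR adjusted p = 0.0507 and 0.117). Syne2, a giant nuclear envelope spectrin-repeat protein, had 485 ± 66.1 and 644 ± 145 CPM (adjusted p = 0.088), and 858 CPM in Brg1 cKO replicate 4 alone.

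Of 4 genes of the calpain system, proteases that cut alpha spectrin, 3 rose, none fell (0 at an unadjusted p under 0.05 and 0 by DESeq2) and 1 was not called. Capn1 and Capn2, the calpain large subunits, were 1.45-fold and 1.39-fold higher (adjusted p = 0.041 and 0.031). Cast, the calpain inhibitor calpastatin, rose from 20.8 ± 2.35 to 27.3 ± 1.56 CPM (adjusted p = 0.023). Capns1, the calpains' shared small subunit, had 233 ± 32.7 and 287 ± 27.7 CPM (adjusted p = 0.076). Relative to the Sertoli median the log2 fold changes of Capn1, Capn2, Cast and Capns1 were 0.12, 0.053, -0.025 and -0.12. Relative to the pan-germ median they were 0.88, 0.82, 0.74 and 0.65. Cast was not called without Brg1 cKO replicate 1 (adjusted p = 0.0701 by edgeR). Capn1 stayed called only without Brg1 WT replicate 3, and Capn2 only when Brg1 WT replicate 2 or 4 or Brg1 cKO replicate 4 was left out, with adjusted p-values of up to 0.114 and 0.0822.

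**Figure D5:**
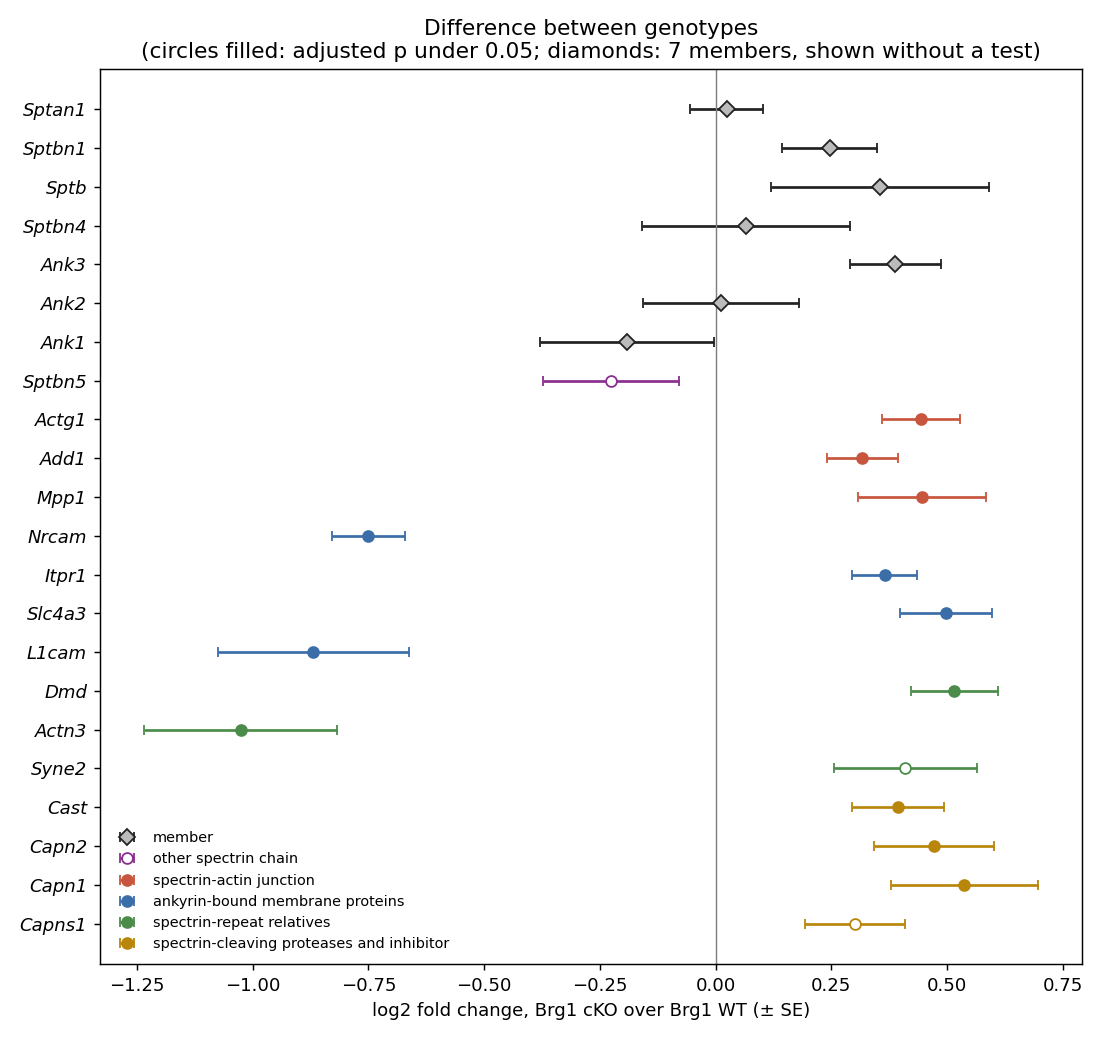
Log2 fold change of Brg1 cKO over Brg1 WT with its SE for the 7 members (diamonds, no test) and for Sptbn5 and genes of the 4 partner lists (circles, filled where the adjusted p was under 0.05). The members run from -0.19 to 0.39, and Actn3, L1cam and Nrcam lie to the left of them all, at -1.03, -0.87 and -0.75.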

How the data were processed

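The authors deposited a table of estimated counts by gene symbol, not scaled for depth or length, which was used for 8 RNA-seq libraries, with groups and replicate numbers from the sample titles. Reads were quantified with kallisto 0.42.5 per the submitters' processing notes, which also name mm9 and edgeR. No annotation, strand setting or rule for summing to symbols is stated in the sources used here. Counts were rounded (49.6% were not whole), filtered with filterByExpr to 16059 genes, scaled with TMM factors and fitted in edgeR 4.0.16 (quasi-likelihood test, R 4.3.3, robust, genotype only), with Benjamini-Hochberg adjustment over all genes and a threshold of 0.05. The test was checked on simulated counts. SE is the absolute log2 fold change over the root of F. Totals of 20456743 to 32596038 limit the precision of low genes. The p-values set the difference between genotypes against the spread between these libraries, which the fit moderates over genes.

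The members and lists were chosen with earlier results of these data known. Genes named were the members, Smarca4, Sptbn5, up to 4 called genes per list with the smallest adjusted p and the most abundant gene of each list by average log2 CPM over all libraries. A few other genes of the lists are not reported here and enter no list count or sum. Epb41 and other genes named beyond these were chosen after their values were seen. For 6 listed genes an older symbol was matched, and 3 red cell markers had none. Coding lengths came from GENCODE M21 (GRCm38), by symbol, from transcripts with a complete coding sequence. Log2 CPM used a prior count of 2. Alternatives were DESeq2 1.42.0, RLE and upper-quartile factors, other filters, libraries left out, a replicate block and the median of the pan-germ or Sertoli markers as no change. Same-numbered libraries did not deviate together (r = -0.206, 0.127, -0.367 and 0.152), so numbers were not treated as pairs.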

Additional observations from a re-analysis of the deposited data

Results flagged for a closer look

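Of 46 groups of 4 libraries examined, 3 had a library standing apart from the other three by more than the 95% limit of Dixon's test, where chance gives about 1 in 20 groups. Ank1 was low in Brg1 WT replicate 3, at 1.68 CPM, whereas its 3 companions had 2.36 to 2.43 CPM. Ank2 had 27.3 CPM in Brg1 cKO replicate 3 and 19.2 to 20.4 CPM in the others of that genotype. Among partners, Cast had 17.3 CPM in Brg1 WT replicate 1 against 21.6 to 22.1 CPM.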

How the results depend on the processing

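Depth limits Sptbn4 and Ank1, with 23 to 72 estimated counts a library, and the mixture of germ and Sertoli cells limits every direction of small size. Over all genes 3312 were called, 1412 higher and 1900 lower, and leaving out 1 library gave 1608 to 3477 (556 to 1497 higher, 1052 to 1980 lower). Without Brg1 WT replicates 1 and 2 it was 438 (96 and 342), with the pan-germ median as no change 8863 (8284 and 579) and with the Sertoli median 9214 (55 and 9159). DESeq2 called 2228 higher. For the lists 14 calls (11 higher, 3 lower) became 7 to 12 with 1 library left out (4 to 9 higher, 2 or 3 lower), 1 (0 higher, 1 lower) without Brg1 WT replicates 1 and 2, and 35 (33 higher) with the pan-germ median. With the Sertoli median 0 were higher and 17 lower, and DESeq2 called 18 higher. The last 2 scalings move the median of all genes to 0.36 and -0.41 by construction.

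With the replicate block 1914 genes were called over all (745 higher, 1169 lower) and 8 in the lists (7 higher and 1 lower, Nrcam). The numbers did not pair the libraries, so this is no statement on the size of any effect.

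With the pan-germ median as no change the log2 fold changes were 0.37 for Sptan1, 0.59 for Sptbn1, 0.41 for Sptbn4, 0.15 for Ank1, 0.36 for Ank2, 0.73 for Ank3 and 0.12 for Sptbn5. With the Sertoli median they were -0.40, -0.17, -0.35, -0.61, -0.41 and -0.031 for the same 6 members and -0.064 for Sptb. They were -0.10 for Add1, -0.054 for Itpr1, -0.009 for Syne2, -0.025 for Cast and -0.12 for Capns1. The cause was not tested. Leaving out 1 library gave -0.035 to 0.053 for Sptan1, 0.15 to 0.53 for Sptb, 0.16 to 0.31 for Sptbn1, -0.024 to 0.21 for Sptbn4, -0.29 to -0.14 for Ank1, -0.11 to 0.17 for Ank2 and 0.32 to 0.45 for Ank3. Divided by transcript length, levels in Brg1 WT were 122 CPM per kb for Sptan1, 13.3 for Sptb, 51.3 for Sptbn1, 0.270 for Ank1 and 4.42 for Ank3, in the same order by mean. Libraries of Ank1 and Sptbn4 then overlapped in both genotypes.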
